A study of Homo sapiens with 6 samples.

Results

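The genes described here are a set of 37 human genes of glycolysis and of the response to low oxygen, chosen by name, of which 33 were measured among 18417 genes. A gene entered through the probe set that the platform annotation assigns to its symbol alone, and through the brightest such probe set where there were several, which concerned only TPI1. The lactate carriers SLC16A1 and SLC16A3 and the carbonic anhydrase CA9 had no probe set with 1 symbol in the annotation used here. PGAM1, a phosphoglycerate mutase, shared all 5 of its probe sets with other symbols and was not analysed here.

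The 6 Affymetrix Human Gene ST arrays of the study held RNA of SK-N-MC and of A673 cells, both of which are established lines grown from Ewing tumors. In each line, 1 array held cells given a non-silencing control siRNA, and 2 arrays held cells given siRNA 2 or siRNA 3 against STEAP1, which encodes a membrane metalloreductase family member. All cells received 5 nM of siRNA for 48 h. Neither the identity of the control siRNA nor the oxygen level is given in the sources used here. Nothing in the labels says that each array had a culture of its own, so a p-value here reflects the spread among these arrays alone, which may be technical. With 1 control array per line, the control's own spread is unknown. In RNA from whole cultures, fewer cells making a transcript and less RNA per cell cannot be told apart.

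Glycolysis turns glucose into pyruvate, which lactate dehydrogenase reduces to lactate or which enters the mitochondria through pyruvate dehydrogenase. When oxygen is short, prolyl hydroxylases no longer mark HIF1A for destruction, and HIF1A with its partner ARNT binds short motifs around ACGTG or GCGTG near many of these genes and raises their transcription. Ewing tumors are driven by a fusion of EWSR1 with an ETS factor, and like many tumors they use glycolysis heavily even with oxygen present.

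STEAP1 was below its control on every siRNA array. Its level in SK-N-MC went from 7.15 log2 units in the control to 4.17 with siRNA 2 and 4.73 with siRNA 3, or 12.7% and 18.7% of the control intensity. In A673 it went from 6.23 to 4.53 and 4.59, or 30.8% and 32.1%. Across all genes, Pearson's r was 0.986 to 0.993 within a line and 0.946 to 0.949 between lines (genes are not independent replicates). Gene medians of the arrays lay between 3.21 and 3.24 log2 units. Upper quartiles lay between 4.95 and 5.07 in SK-N-MC and between 5.09 and 5.12 in A673. The Ewing tumor marker CD99 lay between 9.40 and 10.25 on all arrays and NKX2-2 between 5.57 and 6.15. All 5 leukocyte and endothelial markers measured, and 4 of 5 epithelial ones, were below the array median on every array. Fibroblast markers were not all low: 2 of 6 were below the median on every array, 4 of 6 were called higher in SK-N-MC, and their summed intensity was 263 to 310.1 in SK-N-MC against 139 to 213 in A673. Their part in the line differences below was not tested.

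The stretch just before the transcription start is printed for 3 genes, because the data bear on each in another way: ENO2 had the largest difference between the lines, HK2 the smallest p-value after silencing, and LDHA was among the genes not called between the lines. Each window is the 250 bases before 1 RefSeq start of the gene (GRCh38.p14, plus strand), with every ACGTG or GCGTG on either strand in capitals. They are chr12:6914330-6914579 for ENO2, chr2:74833877-74834126 for HK2 and chr11:18394313-18394562 for LDHA.
ENO2: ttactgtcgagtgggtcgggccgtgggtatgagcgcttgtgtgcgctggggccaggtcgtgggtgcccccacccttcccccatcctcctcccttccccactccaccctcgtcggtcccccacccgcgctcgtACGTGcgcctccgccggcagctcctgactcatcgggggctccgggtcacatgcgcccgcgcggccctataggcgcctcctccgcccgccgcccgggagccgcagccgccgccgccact
HK2: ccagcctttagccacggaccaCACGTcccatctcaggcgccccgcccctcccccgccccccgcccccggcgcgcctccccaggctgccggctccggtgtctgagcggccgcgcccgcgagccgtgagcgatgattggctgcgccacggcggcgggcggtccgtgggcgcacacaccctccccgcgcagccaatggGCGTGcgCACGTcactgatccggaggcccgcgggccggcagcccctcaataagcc
LDHA: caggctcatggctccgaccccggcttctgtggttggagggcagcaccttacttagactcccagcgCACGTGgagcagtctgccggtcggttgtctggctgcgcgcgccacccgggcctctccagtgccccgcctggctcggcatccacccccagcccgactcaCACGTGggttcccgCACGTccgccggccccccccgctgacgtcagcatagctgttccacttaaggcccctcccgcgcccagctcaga

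ENO2 carries 1 capital stretch, HK2 carries 3 and LDHA carries 3. In LDHA, 2 of them are the palindrome CACGTG, which holds ACGTG on both strands. Windows were found for 28 of the 33 genes, with none for SLC2A3, VEGFA, BNIP3L, NDRG1 and HILPDA. ACGTG stood in 12 of the 28 windows (42.9%), against 21.1% of the 14239 windows of measured genes and 18.7% of all 27305 windows. With GCGTG allowed as well, the share was 64.3%, against 51.1% and 43.1%, and CACGTG alone stood in 17.9%, against 7.86% and 6.49%. By the line calls described next, ACGTG stood in 3 of the 9 windows of genes called higher in A673 (ALDOC, ENO2 and GAPDH), in 1 of the 2 windows of genes called higher in SK-N-MC (BNIP3), and in 8 of the 17 windows of genes not called. A match is a description of these letters, not a bound site, and which start these lines use was not measured.

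**Figure D1:**
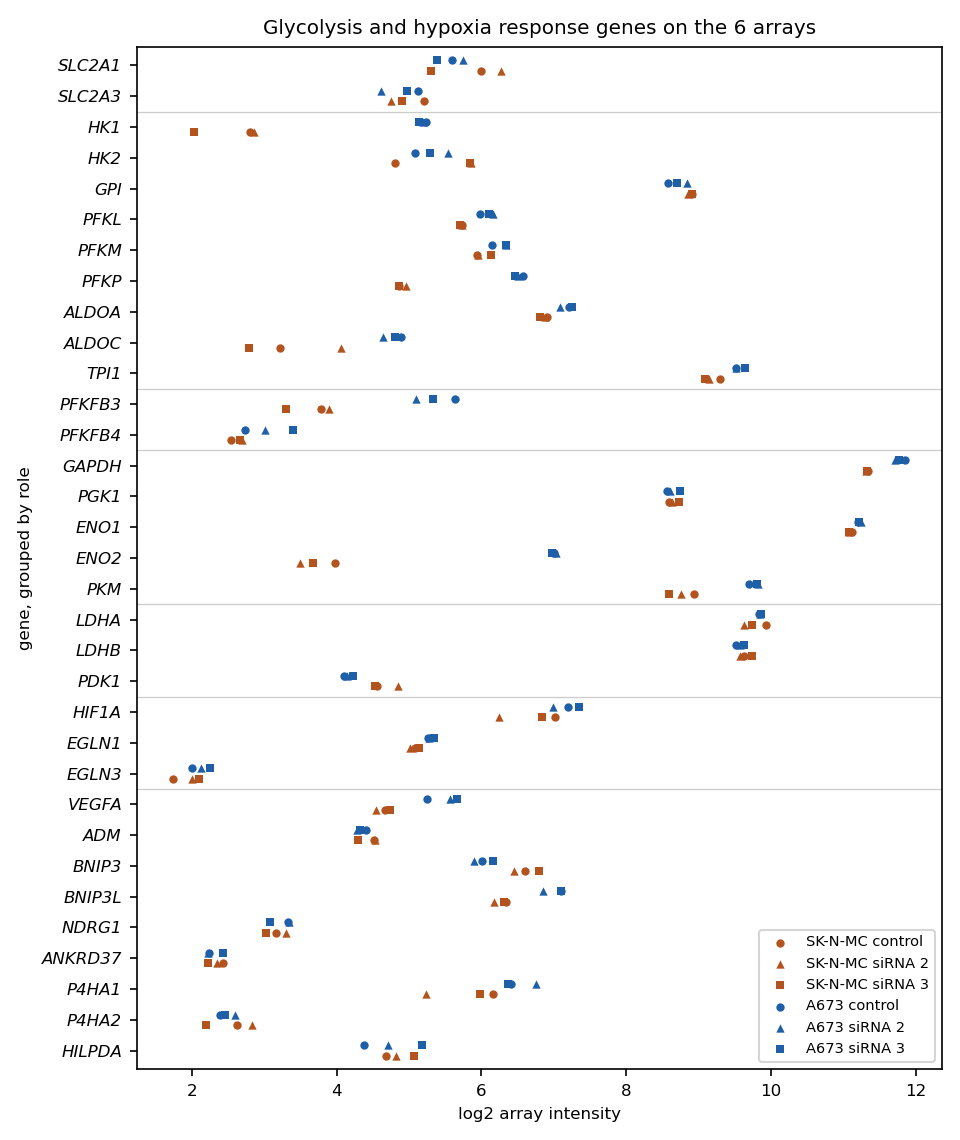
Log2 array intensity (x axis) of the 33 measured genes (y axis, grouped by role) on the 6 arrays, with SK-N-MC in orange and A673 in blue and a symbol for each siRNA. For ENO2, HK1, PFKP and PFKFB3 all 3 A673 arrays lie at least 1 unit to the right of all 3 SK-N-MC arrays; levels of different genes are not comparable.

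The first comparison set the 3 A673 arrays against the 3 SK-N-MC arrays, with silencing as a term in the fit. Several glycolytic genes were higher in A673: the neuronal enolase ENO2 by 9.74-fold, the phosphofructokinase regulator PFKFB3 by 3.22-fold, the platelet-type phosphofructokinase PFKP by 3.07-fold, the aldolase ALDOC by 2.67-fold and the pyruvate kinase PKM by 2.02-fold. The hexokinase HK1 was 2.62 log2 units higher, but it was dim in SK-N-MC, and the difference was 1.19 with values under 4 log2 units raised to 4. The mitophagy receptor BNIP3 and the pyruvate dehydrogenase kinase PDK1 were higher in SK-N-MC, by 1.51-fold and 1.40-fold. In limma (Benjamini-Hochberg adjusted p under 0.05 over all genes), 13 of the 33 genes were called (39.4%), where 24.8% of all genes were. Of these, 11 were higher in A673 (33.3%, against 13.5% of all genes) and 2 were higher in SK-N-MC (6.06%, against 11.4%). Calls are more frequent among brighter genes: of genes with a mean of at least 4 log2 units, 38.9% were called, against 12 of 27 of this set (44.4%), so the total lay near that of genes of like level. Shares by direction, here and below, stand beside all genes and were not counted among genes of like level. Across the 33 genes the median difference was 0.22 log2 units, against -0.02 over all genes and 0.02 over genes with a mean of at least 4 log2 units.

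All 3 A673 arrays were above all 3 SK-N-MC arrays for 17 of the 33 genes (51.5%, against 19.4% of all genes), and the reverse held for 3 genes, GPI, PDK1 and BNIP3 (9.09%, against 18.5%). On the 4 siRNA arrays alone, 7 genes were called rather than 13 (21.2%, against 17.4% of all genes in that fit): HK1, PFKP, PFKFB3, ENO2, PKM, VEGFA and BNIP3L. Leaving out either control array gives that same fit, since the silencing term then takes up the other control.

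**Figure D2:**
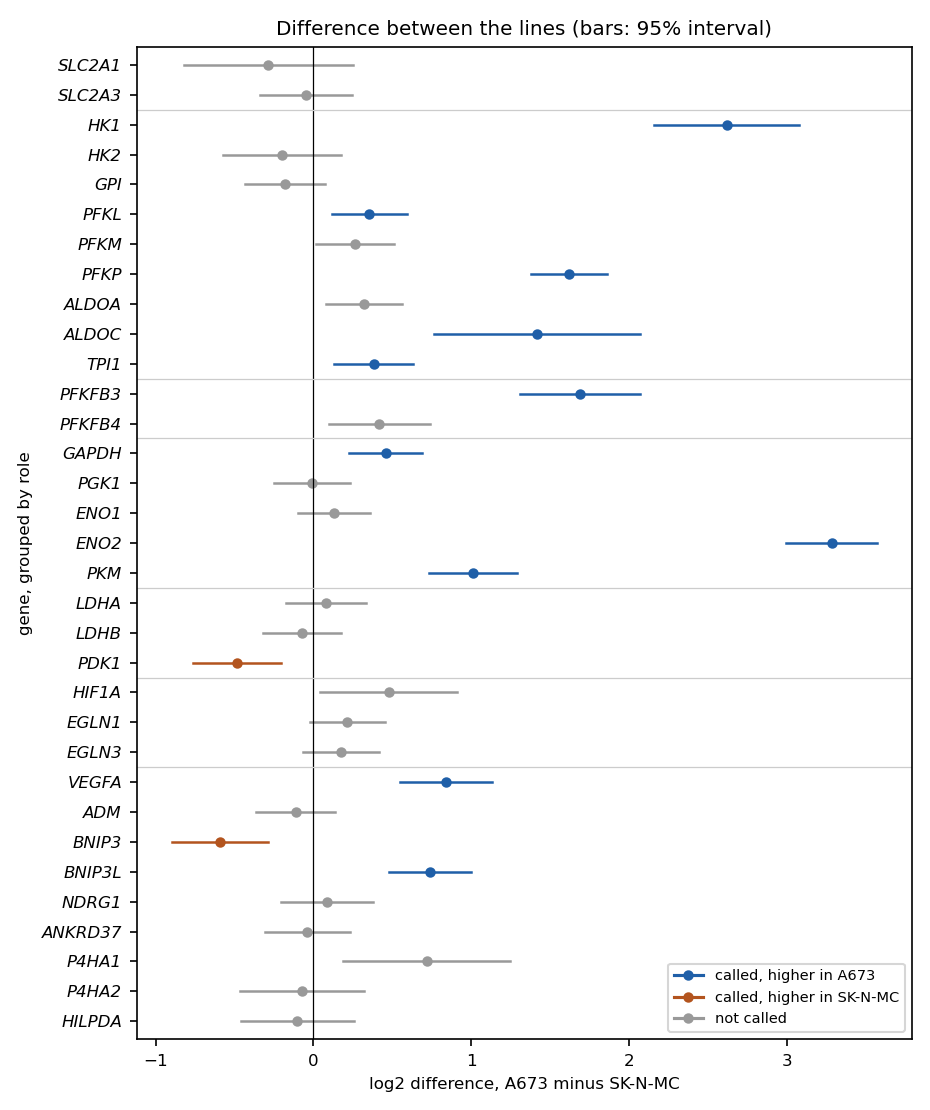
Log2 difference, A673 minus SK-N-MC (x axis), for each gene (y axis, grouped by role), with the 95% interval of the limma fit, unadjusted for the number of genes, as bars. Called genes are coloured: 11 lie to the right, led by ENO2 at 3.28 and HK1 at 2.62, and 2 to the left, BNIP3 at -0.59 and PDK1 at -0.48.

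Of the genes that bring glucose into the cell, SLC2A1, the widespread carrier GLUT1, read 6.00 in the SK-N-MC control, 6.27 with siRNA 2 and 5.30 with siRNA 3, against 5.59, 5.74 and 5.38 in A673. SLC2A3, the high-affinity carrier GLUT3, read 5.20, 4.76 and 4.90 in SK-N-MC, against 5.13, 4.62 and 4.98 in A673. The arrays of the lines overlapped for both carriers, and neither was called: the differences were -0.29 (SE 0.23) and -0.05 (SE 0.13) log2 units, with 95% intervals of -0.82 to 0.25 and -0.34 to 0.25. SLC2A1 was called, higher in SK-N-MC, when the SK-N-MC siRNA 3 array was left out.

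The hexokinases trap glucose as its phosphate, and HK1 was called between the lines while HK2 was not. HK1, the form found in most tissues, read 2.81, 2.86 and 2.04 in SK-N-MC (control, siRNA 2, siRNA 3), each below the median gene of its array, and 5.23, 5.20 and 5.14 in A673. The gap between the lines was larger than the spread within either, at 2.62 log2 units (SE 0.20; limma adjusted p = 4.84e-05). HK2, the inducible form and a known HIF1A target, read 4.80, 5.86 and 5.85 in SK-N-MC, against 5.09, 5.53 and 5.29 in A673. Its control was higher in A673 and its siRNA arrays were higher in SK-N-MC, and the line difference was -0.20 (SE 0.16), not called.

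Phosphofructokinase, the committed step, has liver, muscle and platelet subunits. PFKP, the platelet subunit, read 4.87, 4.96 and 4.86 in SK-N-MC, against 6.57, 6.51 and 6.47 in A673, a difference of 1.62 (SE 0.10; limma adjusted p = 1.89e-05) with groups far apart. PFKL, the liver subunit, lay between 5.71 and 5.73 in SK-N-MC and between 5.98 and 6.15 in A673, a difference of 0.36 (SE 0.10; limma adjusted p = 0.0373). PFKM, the muscle subunit, differed by 0.26 (SE 0.11) and was not called. Every subunit was thus above its SK-N-MC level on each A673 array. The call for PFKL, however, was lost when any 1 of the 6 arrays was left out, and after a second quantile normalization.

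PFKFB3, which makes the sugar bisphosphate that activates phosphofructokinase, read 3.79, 3.89 and 3.31 in SK-N-MC, against 5.63, 5.09 and 5.32 in A673. The difference was 1.69 (SE 0.17; limma adjusted p = 1.81e-04). Its relative PFKFB4 read 2.54, 2.70 and 2.66 against 2.73, 3.01 and 3.40, above the array median on 1 array only. The groups did not overlap, but the difference of 0.42 (SE 0.14, limma adjusted p = 0.0624) missed the threshold. PFKFB4 was called after a second quantile normalization.

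Aldolase splits the fructose bisphosphate, and TPI1 interconverts the resulting trioses. ALDOC, the brain form of aldolase, read 3.22, 4.06 and 2.80 in SK-N-MC, against 4.89, 4.64 and 4.81 in A673. The SK-N-MC arrays were widely spread, and the difference of 1.42 (SE 0.28; limma adjusted p = 0.00699) was not called on the siRNA arrays alone, and was 0.76 with values under 4 log2 units raised to 4. ALDOA, the main aldolase of muscle and most tumors, differed by 0.32 (SE 0.11; limma adjusted p = 0.0608). It was called among genes with a mean of at least 4 or 6 log2 units, and with an intensity trend. TPI1 differed by 0.38 (SE 0.11; limma adjusted p = 0.0356), and its other probe set gave 0.33. Its call was lost when any 1 array was left out, and after a second quantile normalization. GPI, the isomerase between hexokinase and phosphofructokinase, was higher on each SK-N-MC array than on each A673 array, but its difference of -0.18 (SE 0.11) was not called.

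In the later steps, enolase makes phosphoenolpyruvate, the substrate of pyruvate kinase. ENO2 read 3.98, 3.50 and 3.67 in SK-N-MC, against 6.998, 7.03 and 6.98 in A673, so that the lowest A673 array was far above the highest SK-N-MC array. The difference was 3.28 (SE 0.12; limma adjusted p = 1.52e-06). ENO1, the ubiquitous enolase, read 11.12, 11.08 and 11.07 against 11.20, 11.24 and 11.21, a difference of 0.13 (SE 0.10) that was not called, with a 95% interval of -0.10 to 0.36.

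PKM, the last enzyme of the pathway, read 8.94, 8.75 and 8.59 in SK-N-MC, against 9.69, 9.81 and 9.81 in A673, a difference of 1.01 (SE 0.12; limma adjusted p = 5.27e-04). GAPDH, often taken as a constant reference gene, read 11.34, 11.30 and 11.33 in SK-N-MC, against 11.85, 11.71 and 11.77 in A673. It was called higher in A673 by 0.46 (SE 0.10; limma adjusted p = 0.0113), but after a second quantile normalization the difference was 0.30 and the call was lost, as it was on the siRNA arrays alone. PGK1, the kinase that follows GAPDH, differed by -0.01 (SE 0.10; 95% interval -0.25 to 0.23) and was not called.

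Of the 3 genes that bear on the fate of pyruvate, only PDK1 was called between the lines. LDHA, the dehydrogenase subunit linked to lactate output, read 9.93, 9.62 and 9.74 in SK-N-MC, against 9.83, 9.85 and 9.85 in A673. LDHB, the subunit of oxidative tissues, read 9.63, 9.57 and 9.74 against 9.52, 9.56 and 9.63. Both overlapped between the lines, with differences of 0.08 (SE 0.11; 95% interval -0.18 to 0.34) and -0.07 (SE 0.11; 95% interval -0.32 to 0.17). PDK1, which switches off pyruvate dehydrogenase, read 4.55, 4.85 and 4.52 in SK-N-MC, against 4.10, 4.15 and 4.23 in A673. The difference of -0.48 (SE 0.12; limma adjusted p = 0.0192) was no longer called on the siRNA arrays alone or without either siRNA array of A673.

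Of the oxygen sensing genes, HIF1A, the regulated subunit of the hypoxia factor, read 7.02, 6.24 and 6.84 in SK-N-MC, against 7.20, 6.98 and 7.35 in A673. The groups overlapped and the difference of 0.48 (SE 0.19; limma adjusted p = 0.112) was not called. EGLN1, the main prolyl hydroxylase, differed by 0.22 (SE 0.10) and EGLN3, an inducible one, by 0.17 (SE 0.11), neither called, and EGLN3 lay below the array median throughout. HIF1A is regulated mainly at the protein, which these arrays do not measure.

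Of the 9 hypoxia target genes measured, 3 were called, where 24.8% of all genes were: VEGFA and BNIP3L were higher in A673 and BNIP3 was lower. VEGFA, the main angiogenic growth factor, read 4.66, 4.54 and 4.74 in SK-N-MC, against 5.25, 5.56 and 5.66 in A673, a difference of 0.84 (SE 0.13; limma adjusted p = 0.00165). BNIP3L, a mitophagy receptor, ranged from 6.18 to 6.33 in SK-N-MC and from 6.86 to 7.09 in A673, a difference of 0.74 (SE 0.11; limma adjusted p = 0.0018). Its close relative BNIP3 ran the other way: it read 6.60, 6.46 and 6.80 in SK-N-MC, against 6.00, 5.90 and 6.16 in A673, a difference of -0.59 (SE 0.13; limma adjusted p = 0.0116), which was no longer called on the siRNA arrays alone or without the A673 siRNA 2 array.

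P4HA1, a collagen prolyl hydroxylase, differed by 0.72 (SE 0.23; limma adjusted p = 0.0556). It was called once the SK-N-MC siRNA 3 array was left out, among genes with a mean of at least 4 or 6 log2 units, and with an intensity trend. The peptide hormone gene ADM, the stress gene NDRG1, ANKRD37, P4HA2 and the lipid droplet gene HILPDA differed by -0.11 to 0.09 log2 units and were not called. ANKRD37 and P4HA2 lay below the array median on every array. Of the 20 genes in all that were not called, the fitted differences ran from -0.29 for SLC2A1 to the 0.72 of P4HA1.

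The second comparison, which the study was built for, set the siRNA arrays against the control of their line. No gene of the set was called across the lines, nor was any of the 18417 genes (0%). That includes STEAP1 itself, at 12.7% to 32.1% of its control, so a lack of calls does not show a lack of response. In limma, 3 of the 33 genes had an unadjusted p under 0.05, HK2, SLC2A3 and HILPDA (9.09%, against 852 or 4.63% of all genes). No adjusted p of the set was below 0.989. The median change of the set was -0.02 log2 units, against -0.01 over all genes. In this fit across lines, the 95% intervals of 32 of the 33 genes stayed within a 2-fold change in either direction, HK2 being the exception. Those of 23 genes stayed within 1.5-fold. The narrowest was that of ENO1, which reached 0.25 log2 units. Within the lines, the intervals reached a 2-fold change for 6 genes in SK-N-MC (SLC2A1, HK1, HK2, ALDOC, HIF1A and P4HA1). In A673 they did so for 3 (ALDOC, PFKFB3 and HILPDA).

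**Figure D3:**
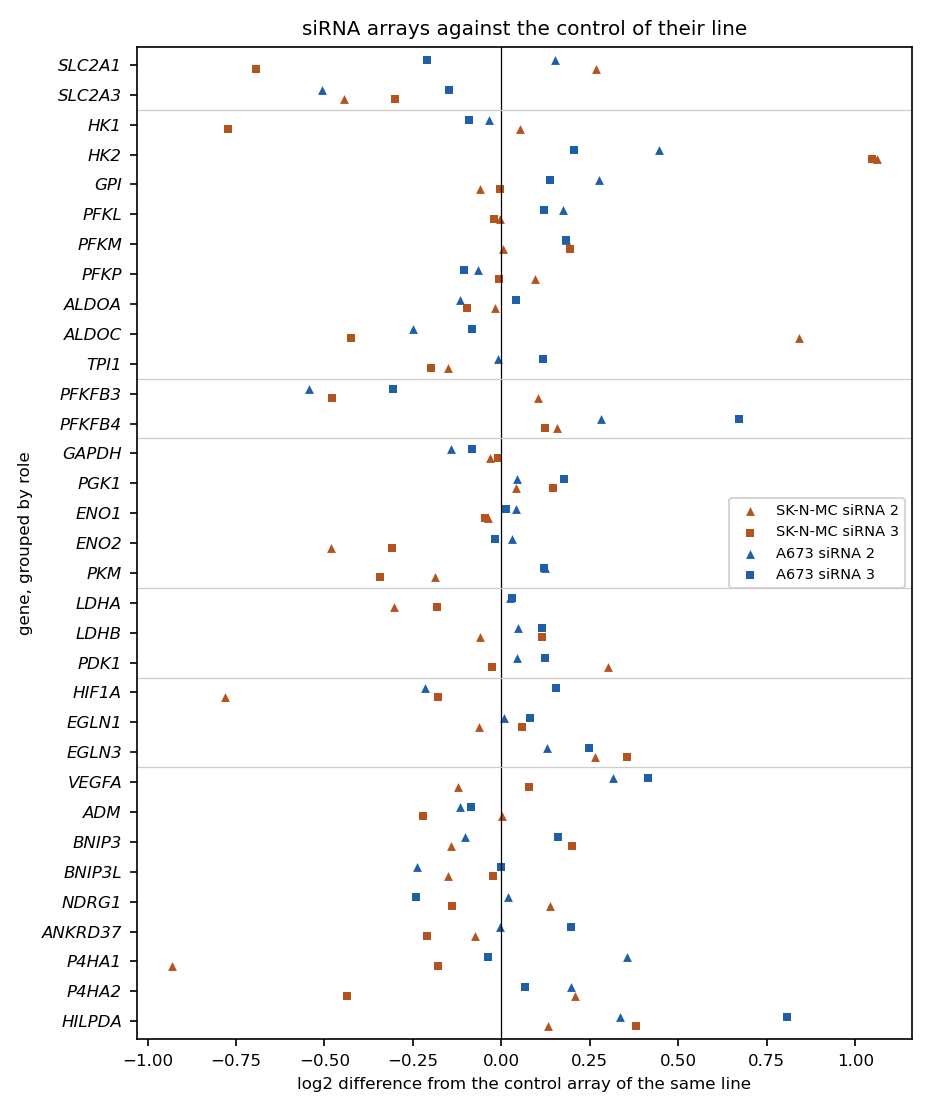
Log2 difference of each siRNA array from the control array of its line (x axis) for each gene (y axis, grouped by role), with SK-N-MC in orange and A673 in blue, triangles for siRNA 2 and squares for siRNA 3. HK2 lies to the right of 0 on all 4 arrays, furthest in SK-N-MC at 1.06 and 1.05, and most genes straddle 0.

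HK2 had the smallest p-value. It was above the control on 4 of 4 siRNA arrays, by 1.06 and 1.05 log2 units in SK-N-MC and, less far, by 0.45 and 0.21 in A673, with a fitted change of 0.69 (SE 0.17; unadjusted p = 0.0039, limma adjusted p = 0.989). Without the SK-N-MC control it was 0.33, which is the A673 response alone, and without the A673 control 1.05, the SK-N-MC response alone. That SK-N-MC control array stood apart in another respect: the median of 17 interferon response genes was 6.56 log2 units there, 3.59 and 5.16 on the SK-N-MC siRNA arrays and 2.06 to 2.11 on the A673 arrays, and 14 of them were called higher in SK-N-MC. Their summed intensity was 3372 on that control, 440.5 and 1727 on the SK-N-MC siRNA arrays and 129 to 146 on the A673 arrays. HK2 read 5.86 and 5.85 on the siRNA arrays between which the interferon genes differed, and their part in the HK2 values was not tested.

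HILPDA, which blocks lipid breakdown in droplets under hypoxia, read 4.69, 4.82 and 5.07 in SK-N-MC, against 4.38, 4.71 and 5.18 in A673. It was above the control on 4 of 4 siRNA arrays, with a change of 0.41 (SE 0.17; limma adjusted p = 0.989). PFKFB4 was above on all 4 as well, at 0.31 (SE 0.15), and so was EGLN3, which read 1.74, 2.01 and 2.10 in SK-N-MC, against 1.998, 2.13 and 2.25 in A673, at 0.25 (SE 0.11), though at levels under the array median. On the other side, the carrier SLC2A3 was below its control on 4 of 4 arrays, at -0.35 (SE 0.13; limma adjusted p = 0.989). PFKFB3 was at -0.31 (SE 0.18), HIF1A at -0.26 (SE 0.20) and ENO2 at -0.19 (SE 0.13), each with 3 of 4 arrays below. Without the SK-N-MC control the fit gives the A673 response alone, which was 0.0054 for ENO2 and -0.03 for HIF1A; the SK-N-MC responses were -0.39 and -0.48. The change of HIF1A was -0.09 once siRNA 2 of SK-N-MC was left out.

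In all, 6 of the 33 genes were above the control on all 4 siRNA arrays (18.2%, against 10.6% of all genes): HK2, PFKM, PFKFB4, PGK1, EGLN3 and HILPDA. There were 3 genes below it on all 4, SLC2A3, GAPDH and BNIP3L (9.09%, against 11.2%). GAPDH was below by no more than 0.14 log2 units on any array. Both arrays of a line share 1 control, so a control that reads low or high moves them together.

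Within the lines, limma called no gene of the set. In SK-N-MC 1 of all genes was called (0.00543%), the interferon-induced XAF1 at -2.59. HK2, at 1.05 (SE 0.18, limma adjusted p = 0.369), was the only gene of the set with an unadjusted p under 0.05 (3.03%, against 943 or 5.12% of all genes). Its intensity there was 2.08-fold that of the control. In A673 none of all genes was called (0%). HILPDA, at 0.57 (SE 0.24, limma adjusted p = 1), had the largest change of the set there. It was the only gene of the set with an unadjusted p under 0.05 (3.03%, against 617 or 3.35% of all genes). The most negative was PFKFB3, at -0.43 (SE 0.26). HK2 changed by 0.33 (SE 0.18) in A673, a 1.25-fold difference that was not called.

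The responses of the lines were then compared directly. HK2 had the smallest p-value, at -0.73 (SE 0.25; unadjusted p = 0.0238 in limma), with the smaller change in A673, and ENO2 at 0.40 (SE 0.24) and PKM at 0.39 (SE 0.24) came next by p-value. P4HA1, at 0.71 (SE 0.46), was nearly as large but had a larger SE. None was called, nor was any of all genes (0%), and each adjusted p of the set was 1. In limma, HK2 alone of the 33 genes (3.03%), and 711 of all genes (3.86%), had an unadjusted p under 0.05. For 5 genes, GPI, PFKL, ENO1, PKM and LDHA, both siRNA arrays of A673 were above their control and both of SK-N-MC below (15.2%; lines on opposite sides made up 20.0% of all genes).

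**Figure D4:**
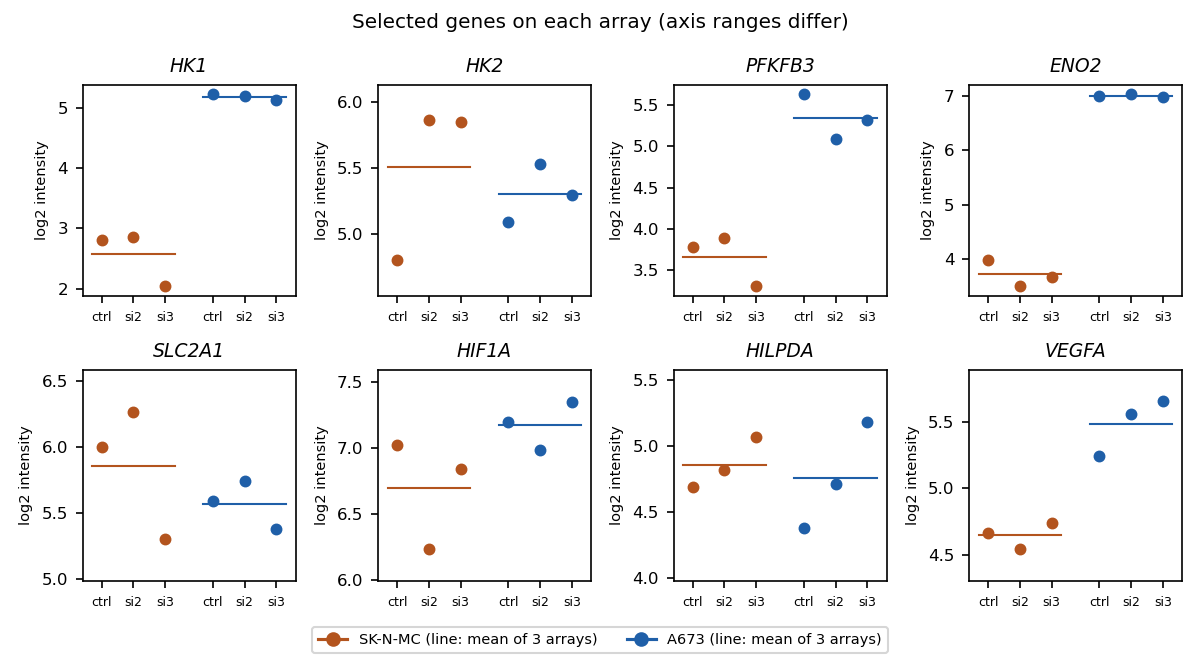
Log2 array intensity (y axis, range differing between panels) of 8 genes on the control, siRNA 2 and siRNA 3 arrays of SK-N-MC (orange) and A673 (blue), with a line at the mean of the 3 arrays of each cell line. HK1, PFKFB3, ENO2 and VEGFA separate by line, HK2 is lowest on the control of each line, and SLC2A1 is higher with siRNA 2 than with siRNA 3 in both lines.

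The siRNAs against STEAP1 were also set against each other, over both lines. SLC2A1 was higher with siRNA 2 than with siRNA 3 in both lines, at 6.27 against 5.30 for SK-N-MC and 5.74 against 5.38 for A673, with a fitted difference of 0.66 (SE 0.17; limma adjusted p = 0.586). In each line the control lay between them, and the silencing change of SLC2A1 averaged over both siRNAs was -0.12 (SE 0.25). HIF1A was lower with siRNA 2 by a fitted -0.49 (SE 0.17; limma adjusted p = 0.684), and HILPDA by a fitted -0.36 (SE 0.15; limma adjusted p = 0.734). Limma called none of these and none of all genes (0%). An unadjusted p under 0.05 was found for 3 of the 33 genes (9.09%) and 1229 of all genes (6.67%).

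The other genes of these pathways came from lists fixed by name, and their counts of calls between the lines stand beside 24.8% of all genes, or 38.9% of those with a mean of at least 4 log2 units. Of 13 further glycolytic enzymes and regulators measured, PFKFB2 alone was called between the lines, higher in A673 by 0.39. On every array, 8 of the 13 were below the array median, PFKFB2 among them. Among 11 further glucose and lactate carriers and their partners, 6 were called, 2 of them with the higher level in A673. The monocarboxylate carriers SLC16A4 and SLC16A7 were lower in A673, at -3.14 (SE 0.19) and -2.40 (SE 0.27), while EMB, an accessory protein of such carriers, was higher at 2.09 (SE 0.18). EMB read 2.06, 2.32 and 2.38 in SK-N-MC, against 4.49, 4.57 and 3.97 in A673.

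Of 11 genes for pyruvate entry into the mitochondria, 5 were called, 2 of them with the higher level in A673. The pyruvate dehydrogenase components DLAT and PDHX were higher in A673, by 1.32 (SE 0.13) and 0.98 (SE 0.13). The component PDHB ran the other way and was called lower in A673, at -0.82 (SE 0.10). The inhibitory kinase PDK3, like PDK1, was lower there, at -0.85 (SE 0.15). Of 10 other oxygen sensing genes and HIF subunits, CITED2, which competes with HIF1A for its coactivator, was the only call, at -0.46 (SE 0.13). Of 25 other hypoxia response genes, 9 were called, 4 of them with the higher level in A673, the largest differences being TMEM45A at -2.64 (SE 0.17), the adenylate kinase AK4 at -2.54 (SE 0.14) and the chemokine receptor CXCR4 at -1.74 (SE 0.18). On silencing, limma called none of the 85 genes of these and the neighbouring sugar lists. In the fit across lines, an unadjusted p under 0.05 was found for 3 of them, AK4, ERO1A and SLC2A8, and for 4.63% of all genes. AK4 was at -0.61 (SE 0.15; 4 of 4 siRNA arrays below) and ERO1A, an oxidase of protein folding, at 0.44 (SE 0.15; 4 of 4 above).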

How the data were processed

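Array intensity was measured in 6 samples, 3 of A673 and 3 of SK-N-MC. The deposited intensity values are linear. The submitters' processing notes name RMA and Affymetrix Expression Console 1.1 as what the authors used; the step back from log2 and any genome build are not given in the sources used here. Here, log2 of the deposited intensity was taken with no further normalization. Of 33297 probe sets, 19460 carried 1 gene symbol, and current symbols came from RefSeq (GRCh38.p14), matched on the gene identifier for 19429. The brightest probe set per gene left 18417 genes. There are no detection calls, so low values have no floor, and 6 arrays limit the precision.

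Tests were made in R 4.3.3 with limma 3.58.1 (lmFit, eBayes, two-sided, Benjamini-Hochberg over all genes, threshold 0.05). Line and silencing came from a fit of both terms, responses within lines and their difference from 4 group means, and the siRNA difference from line plus siRNA terms; all used 6 arrays. The fits were tested on simulated data. The genes, lists and tests were chosen with earlier results of these data known. Values on every array are given for the genes called between lines with the largest differences (up to 7 in each direction) and the 4 with the smallest silencing p in each direction. They are also given for the 3 with the smallest p in each of the other 2 tests, and a short fixed set of HK2, GAPDH, HIF1A, LDHA, LDHB, SLC2A1 and VEGFA. ENO1, BNIP3L, PFKL and P4HA1 were added after their values were seen. Of these, BNIP3L and PFKL are given by their ranges and P4HA1 by its fitted difference. EMB and TKT, which come from the lists, are given on every array as well. Of each list, up to 3 genes called between lines and the smallest silencing p could be named. ERO1A, XAF1 and PDHB were named after their values were seen. Alternatives were a second quantile normalization, median centring, filters on dim genes, a floor, the mean of probe sets, an intensity trend, siRNA terms in place of the silencing term, and leaving out each array.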

Additional observations from a re-analysis of the deposited data

Results flagged for a closer look

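For 5 of the 33 genes (15.2%, against 20.0% of all genes), both siRNA arrays of A673 lay on one side of their control and both of SK-N-MC on the other. The A673 response minus the SK-N-MC response was 0.24 log2 units for the isomerase GPI, 0.16 for PFKL, 0.070 for ENO1, 0.39 for PKM and 0.27 for LDHA. In each of them A673 was above its control and SK-N-MC below. The limma test of the difference of responses called none of these genes, with an adjusted p of 1 for each. No group held the 4 arrays that the test for a stray array within a group was set to need, so it was not run.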

How the results depend on the processing

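Of the 13 genes called between the lines, HK1, PFKP, PFKFB3 and ENO2 kept their call wherever they were tested. The count was 10 to 15 after a second quantile normalization, median centring, a filter at a mean of 4 log2 units, the mean of probe sets, an intensity trend or a fit of 4 group means. The filter gave 51.9% of the 27 genes tested, against 42.5% of all genes in that fit. The others gave 30.3% to 45.5% of the set, against 21.7% to 25.7% of all genes. The count was 7 among genes with a mean of at least 6 log2 units (14 of the set tested, 5 shared with the 13). Of all genes in that fit 48.9% were called, so the share of the set lay near theirs. The count was 6 with a floor at 4 log2 units (where 5.29% of all genes were called) and 7 on the siRNA arrays alone (17.4% of all genes). Leaving out 1 array gave 7 to 13 (21.2% to 39.4%, against 17.4% to 23.8% of all genes). Leaving out either control is the fit on the siRNA arrays alone and no separate check. With line plus siRNA terms (control, 2 and 3) in the fit the count was 14 (42.4%, against 25.6% of all genes), adding HIF1A, and 0 after silencing. On the siRNA arrays the numbers 2 and 3 name siRNAs. The label of the A673 control also ends in 2, and that number was not read as a pairing. Silencing, response and siRNA tests called 0 of the set under every alternative run. Counts over all genes with the floor went from 1 to 115 in SK-N-MC, from 0 to 79 in A673 and from 0 to 181 for the difference of responses; without the SK-N-MC siRNA 3 array they were 61 in SK-N-MC and 26 for the difference. The silencing change of ENO2, -0.19, became 0.0027 with the floor. All its SK-N-MC values lay under 4 log2 units, so the floor made them equal and left only the A673 change. Leaving out 1 array gave -0.39 to 0.0054, the ends being the responses of SK-N-MC and A673 alone. The cause of the gap between these responses was not tested. Dim genes such as EGLN3, ANKRD37 and P4HA2 lay below the array median and have no detection calls, which limits what their values can show.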

Other observations

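Among neighbouring branches of sugar metabolism, 2 of 6 pentose phosphate genes measured were called between the lines, where 24.8% of all genes were. The transketolase TKT was lower in A673 at -1.17 (SE 0.12) and the dehydrogenase PGD higher at 0.51 (SE 0.10); TKT read 7.29, 7.37 and 7.43 on the SK-N-MC arrays and 6.25, 6.02 and 6.30 on those of A673. Of 10 genes of gluconeogenesis and glycogen, 5 were called, 4 of them with the higher level in A673, and the medians of these lists were 0.12 and 0.11 log2 units. The glycogen synthase GYS1 was higher in A673 by 0.93 (SE 0.15) and the glycogen-targeting subunit PPP1R3C by 0.89 (SE 0.22), while the glucose phosphatase subunit G6PC3 was lower at -0.91 (SE 0.13). On silencing, limma called no gene of either list, and none had an unadjusted p under 0.05 in the fit across lines. Changes in opposite directions cancel in that fit. PPP1R3C, below the array median on every array, changed by 0.45 (SE 0.18) in SK-N-MC and by -0.70 (SE 0.18) in A673, neither called. G6PC3 was below its control on 4 of 4 siRNA arrays at -0.23 (SE 0.14), and the carrier SLC2A8 above on 4 of 4 at 0.36 (SE 0.14), neither called. ARNT, the partner of HIF1A, was above on 4 of 4 at 0.20 (SE 0.11), also not called.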
